A study of Mus musculus with 4 samples.

Results

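A set of 10 genes of the interleukin-1 (IL-1) family and of the inflammasome were followed in mouse liver cells by single-cell RNA sequencing. They are the ligand genes Il1a, Il1b and Il18, the antagonist genes Il1rn and Il18bp, the receptor genes Il1r1, Il1r2 and Il1rl1, the sensor gene Nlrp3 and the protease gene Casp1. The 10 genes were chosen by symbol from the 31053 genes of the count files, and each had UMIs (unique molecular identifiers, 1 for each captured RNA molecule) in all 4 libraries. The choice set no cutoff on a measured value, but it was made with earlier results of these data known.

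The study compared Mef2d knockout (KO) with wild-type (WT) mouse liver at 2 stages, premalignant tissue and early hepatocellular carcinoma (eHCC), with 1 library for each of the 4 groups. Each group is called here by the genotype and stage of its label, such as WT eHCC. The labels give no strain, age, tumour model, Cre driver or number of animals, and they do not say in which cells Mef2d was deleted. By its title, the study is about macrophages resident in the tissue and MEF2D in the precursors of cancer. With 1 library per group no test was possible: genotype, animal and preparation cannot be told apart, nor can stage and library. All 95% intervals below are exact and cover counting error only.

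The libraries kept between 8842 and 12980 cells each, with median UMIs per cell between 4315 and 8201.5. Mef2d RNA itself was at 101 CPM (UMIs of the gene, scaled so that all genes of the sum add up to the same total) in the KO premalignant, 71.2 in the WT premalignant, 90.3 in the KO eHCC and 60.8 in the WT eHCC library. Thus both libraries labelled KO held more Mef2d RNA than their WT partners. 5′ tags may lie outside the deleted part, so this does not check the labels. The cell types differed in number between libraries: neutrophil-like cells numbered 44, 45, 60 and 647 in that order, monocyte- or macrophage-like cells 160, 195, 909 and 3287, and endothelial-like cells 2463, 5099, 70 and 190. Mast cell-like cells (238) came almost wholly from the KO eHCC library, and 302 of the Kupffer-like cells from the WT premalignant library. Each pair of libraries shared 21 to 40 cell barcodes. Cell types are clusters named by marker lists that hold none of the 10 genes, which were also left out of the clustering.

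IL-1 alpha and IL-1 beta signal through the receptor IL1R1. The antagonist encoded by Il1rn competes for that receptor, and the decoy receptor IL1R2 binds IL-1 without signalling. IL-1 beta and IL-18 are made as precursors that caspase-1 cuts within inflammasomes such as the one built by NLRP3, IL-18 is held in check by the binding protein encoded by Il18bp, and Il1rl1 encodes ST2, the receptor of IL-33 found on mast cells, basophils and subsets of T cells. In the liver, phagocytes are the best-known source of IL-1 beta. RNA levels do not show how much precursor was cut or released.

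On GRCm38, the IL-1 ligand and receptor genes form a pair and a triplet of neighbours, with gene bounds from the GENCODE annotation. Il1a (chr2:129299610-129309972, minus strand) and Il1b (chr2:129364570-129371139, minus strand) are 54.6 kb apart. Il1r2 (chr1:40074079-40125231), Il1r1 (chr1:40225080-40317257) and Il1rl1 (chr1:40429570-40465415) follow each other on the plus strand with gaps of 99.8 and 112 kb. Il1rn (chr2:24336853-24351494) lies far from the other ligand genes on the same chromosome. Il18 is at chr9:50554827-50581840, Il18bp at chr7:102014885-102018690, Nlrp3 at chr11:59541568-59566956 and Casp1 at chr9:5298517-5307265.

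The RefSeq promoters of 4 genes are shown (GRCm38.p6, the 250 bases before an annotated start, on the gene's strand). The neighbours Il1a and Il1b were chosen because they were found mostly in different cells in premalignant liver. In WT eHCC monocyte- or macrophage-like cells held most UMIs of both. Nlrp3 was chosen as it lay in much the same cells as Il1b, and Il1rl1 as it lay in mast cell-like, basophil-like and T-like cells. For each of these last 2 genes 2 starts are given. Capitals mark the letters GAGGAA (searched as an ETS core), TGANTCA (AP-1), TTNNGNAA (C/EBP) and AGATAA (searched for GATA factors), read on either strand. In Il1a the capital run at -43 to -36 is a C/EBP match that holds the ETS word at -41 to -36, and the run at -12 to -6 is the AP-1 word. In Il1b the capitals at -91 to -84 are the C/EBP word.
Il1a, chr2:129309973-129310222: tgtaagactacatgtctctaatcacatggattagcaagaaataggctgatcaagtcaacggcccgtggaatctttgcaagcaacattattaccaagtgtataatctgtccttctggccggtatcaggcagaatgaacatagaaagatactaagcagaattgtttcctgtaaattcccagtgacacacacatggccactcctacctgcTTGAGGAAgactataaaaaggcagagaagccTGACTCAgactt
Il1b, chr2:129371140-129371389: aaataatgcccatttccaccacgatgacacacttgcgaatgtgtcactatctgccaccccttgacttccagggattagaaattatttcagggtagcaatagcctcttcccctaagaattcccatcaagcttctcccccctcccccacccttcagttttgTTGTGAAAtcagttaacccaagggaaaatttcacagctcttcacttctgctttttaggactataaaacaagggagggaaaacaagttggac
Nlrp3 upstream start, chr11:59541319-59541568: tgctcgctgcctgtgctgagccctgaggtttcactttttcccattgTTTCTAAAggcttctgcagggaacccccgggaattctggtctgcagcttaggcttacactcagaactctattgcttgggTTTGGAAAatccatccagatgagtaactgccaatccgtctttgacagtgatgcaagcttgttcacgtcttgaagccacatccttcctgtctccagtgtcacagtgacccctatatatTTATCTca
Nlrp3 downstream start, chr11:59542436-59542685: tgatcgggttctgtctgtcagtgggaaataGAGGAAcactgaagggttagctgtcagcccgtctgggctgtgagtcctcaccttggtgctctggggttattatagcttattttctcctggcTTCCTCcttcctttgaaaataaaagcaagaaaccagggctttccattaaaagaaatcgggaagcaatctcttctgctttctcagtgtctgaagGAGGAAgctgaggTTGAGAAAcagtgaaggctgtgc
Il1rl1 upstream start, chr1:40429320-40429569: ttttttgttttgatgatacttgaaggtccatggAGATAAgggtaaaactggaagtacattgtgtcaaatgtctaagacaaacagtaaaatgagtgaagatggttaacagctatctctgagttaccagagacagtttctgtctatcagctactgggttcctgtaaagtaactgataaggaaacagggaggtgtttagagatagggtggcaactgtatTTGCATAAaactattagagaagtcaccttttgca
Il1rl1 downstream start, chr1:40439379-40439628: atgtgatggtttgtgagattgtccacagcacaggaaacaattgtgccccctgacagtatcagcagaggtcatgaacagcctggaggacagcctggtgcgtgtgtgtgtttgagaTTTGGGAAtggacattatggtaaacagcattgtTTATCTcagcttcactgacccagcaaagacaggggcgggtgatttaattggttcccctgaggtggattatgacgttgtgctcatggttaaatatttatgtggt
In the downstream Nlrp3 window the ETS word stands at -220 to -215, at -129 to -124 on the other strand and at -36 to -31, with a C/EBP match at -23 to -16. The upstream Nlrp3 window has no ETS word but C/EBP matches at -204 to -197 and -125 to -118 and a GATA word at -8 to -3. A GATA word stands in each Il1rl1 window, at -217 to -212 in the upstream window and at -103 to -98 on the other strand in the downstream window, and each also has a C/EBP match, at -34 to -27 and at -136 to -129. Among 32851 promoter windows of the same length, 23.3% held the ETS word, 36.8% the C/EBP word, 9.99% the GATA word and 6.75% the AP-1 word. An NF-kB pattern with fixed outer and open middle letters, looser than the full consensus, was held by 45.8% of all windows. It stood in the upstream Nlrp3 window at -186 to -177 and in none of the other windows shown. A MEF2 pattern, also with open middle letters, stood in 3.20% of all windows and in 0 of the 15 windows of the 10 genes. That pattern asks for C as its first and G as its last letter, so MEF2 words with other end letters were not searched. The absence of matches therefore does not show that these windows lack a MEF2 consensus word. A match is a description of letters, not of a bound site, and none of these matches was related to the values by a test.

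The 10 genes divided between cell types in 4 ways. Il1b, Nlrp3, Il1r2 and Il1rn were mostly myeloid in eHCC, where named myeloid cells held between 76.8% (Il1r2 in KO) and 94.5% (Il1b in WT) of their UMIs. In WT premalignant liver the myeloid share was lower, at 65.4% for Il1b, 57.3% for Il1r2, 53.3% for Nlrp3 and 48.1% for Il1rn, and unnamed clusters held 23.4%, 18.2%, 33.8% and 37.9% in the same order. Il1a and Il1r1 were mostly endothelial in premalignant liver, where endothelial-like cells held 90.5% and 85.4% of the Il1a UMIs and 85.2% and 85.3% of the Il1r1 UMIs in the KO and WT library. Il18bp had its highest premalignant level in Kupffer-like cells, though in the KO library endothelial-like cells held 275 of its 582 UMIs. Il1rl1 was led by mast cell-like cells where these were present, and Casp1 was spread over nearly all leukocytes and endothelium. Il18 likewise had its highest premalignant level in Kupffer-like cells.

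**Figure D1:**
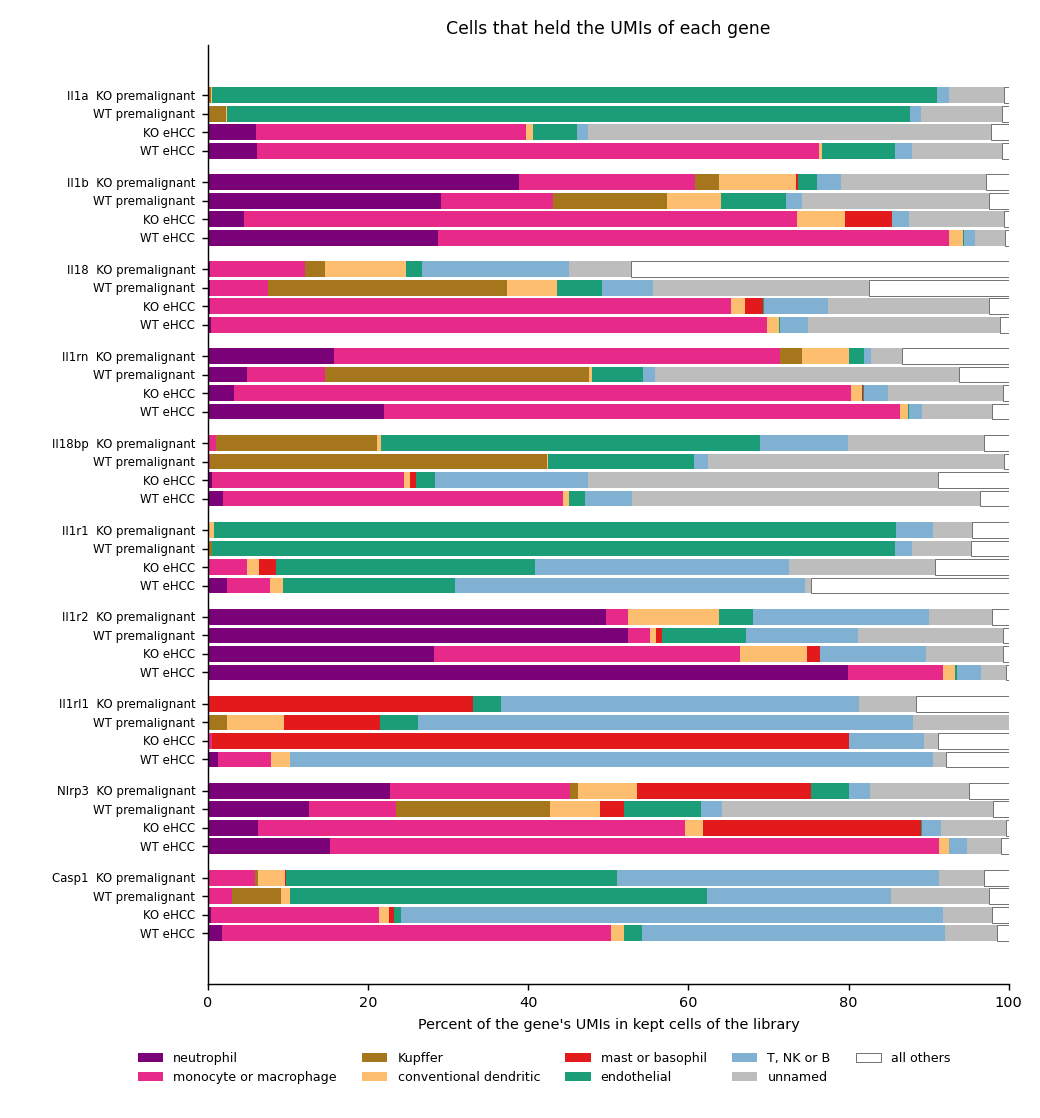
Percent of each gene's UMIs (x axis) held by each cell type (colours), 1 bar per gene and library. In premalignant liver most Il1a and Il1r1 lies in endothelial-like cells, whereas in eHCC most Il1b lies in monocyte- or macrophage-like and neutrophil-like cells.

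Il1b was counted with 3634 UMIs in the KO premalignant, 5648 in the WT premalignant, 19939 in the KO eHCC and 81834 in the WT eHCC library. Over all kept cells its level was 75.9 CPM in the KO premalignant, 65.6 in the WT premalignant, 249.7 in the KO eHCC and 802 in the WT eHCC library. The WT eHCC library was highest, and both premalignant libraries lay far below both eHCC libraries. Neutrophil-like cells had the highest level of the named classes in 3 of the 4 libraries, and in KO eHCC they came second to the basophil-like cells: 9920.0 CPM in 44 KO premalignant cells, 11464 in 45 WT premalignant cells, 2265 (95% interval 2119 to 2418) in 60 KO eHCC cells and 7956 (7854 to 8058) in 647 WT eHCC cells. The KO eHCC neutrophil-like cells therefore stood apart as low.

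Part of that difference followed the neutrophil-like clusters. In a cluster led by Stfa2l1 and Retnlg, Il1b was at 9920.0 CPM (44 cells), 12328 (43), 5227 (35) and 7447 (230) in the same order, so that the KO and WT eHCC libraries differed by a log2 ratio of -0.51 (-0.62 to -0.40). A cluster led by Siglecf held 349 WT eHCC cells at 12200.1 CPM and a single KO eHCC cell. A cluster led by Ngp and Camp, genes of immature neutrophil granules, was low in both eHCC libraries, at 424 CPM in 24 KO cells and 656 in 68 WT cells. Over all neutrophil-like cells the log2 ratio of KO to WT eHCC was -1.81 (-1.91 to -1.72). The median gene of these cells was itself shifted to -0.80, and after scaling to that median the Il1b ratio was -0.98, just inside 2-fold.

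The monocyte- or macrophage-like cells were lower per UMI than neutrophil-like cells but held 69.1% and 63.8% of the Il1b UMIs of the KO and WT eHCC libraries, against 22% and 13.9% in premalignant liver. Their level was 622 (95% interval 579 to 666) CPM in the KO premalignant, 524 (95% interval 488 to 562) in the WT premalignant, 1306 (95% interval 1284 to 1328) in the KO eHCC and 994 (95% interval 985 to 1002) in the WT eHCC library. Both eHCC libraries were above both premalignant libraries, by a log2 ratio of 0.92 (0.82 to 1.03) in WT and 1.07 (0.97 to 1.18) in KO. Between genotypes the ratio was 0.25 (0.10 to 0.39) in premalignant liver and 0.39 (0.37 to 0.42) in eHCC. In the classical monocyte-like cells alone, which both eHCC libraries held in like number (726 and 737), the eHCC ratio of KO to WT was -0.13 (-0.17 to -0.10), and in the macrophage-like cells (123 and 2090) it was -0.99 (-1.28 to -0.71).

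The eHCC cells of this class came from different clusters in the 2 genotypes, which has to be read beside every value for it. The KO eHCC cells lay mostly in clusters led by Ly6i and Cxcl9 (350 cells) and by Tppp3 and Plac8 (368), both classical monocyte-like. The WT eHCC cells lay mostly in macrophage-like clusters led by Fcrls (1108 and 438) and by Gpnmb and Spp1 (400). Others lay in monocyte-like clusters led by Chil3 and Saa3 (569) and by Tgfbi and Ccr2 (435). Of the macrophage-like cells, 120 of 123 in KO eHCC lay in a single further cluster, which held 114 of 2090 in WT eHCC. Their median depth was 1750 UMIs in KO and 16009 in WT eHCC. In WT eHCC Il1b ranged from 117 CPM in the smaller Fcrls cluster through 565 in the Gpnmb and Spp1 cluster and 912 in the larger Fcrls cluster to 1399 and 1892 in the 2 monocyte-like clusters. In the Ly6i and Cxcl9 cluster it was 1813 CPM in KO eHCC and 1949 in WT eHCC (56 cells), a log2 ratio of -0.10. The level thus varied more between clusters of WT eHCC than between genotypes within this cluster.

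Other myeloid cells carried Il1b as well. Conventional dendritic-like cells had 252 CPM in the KO premalignant, 307 in the WT premalignant, 914 in the KO eHCC and 798 in the WT eHCC library. The level was again higher in eHCC, by 1.38 in WT and 1.86 in KO on the log2 scale. In the same order, 23 of 107, 18 of 98, 113 of 172 and 31 of 126 cells of this class were mature dendritic-like. Kupffer-like cells of WT premalignant liver had 290.0 (95% interval 270.3 to 311) CPM, while the 29 KO premalignant cells had 924 with 44.1% of it in a single cell. Basophil-like cells had 48.5 CPM in 45 KO premalignant cells and 57.8 in 21 WT premalignant cells but 3125 in 63 KO eHCC cells. That level was above the neutrophil-like and the monocyte- or macrophage-like level of the same library.

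Low Il1b counts in lymphocytes moved with the library. T-like cells had 7.34 CPM in the KO premalignant, 5.61 in the WT premalignant, 8.41 in the KO eHCC and 32.6 in the WT eHCC library, and B-like cells had 2.94, 3.7, 10.4 and 55.2 in the same order. In the same T-like cells the 11 macrophage markers summed to 91, 239.7, 65.4 and 1315 CPM with none at 0, and the 10 neutrophil markers to 91.8, 74.2, 45.5 and 147. The 8 classical monocyte markers summed to 672, 672, 1186 and 888. The WT eHCC library was thus highest for Il1b and for the macrophage and neutrophil markers, but KO eHCC was highest for the monocyte markers, and the part of free or neighbouring-cell RNA in the lymphocyte values was not tested. After thinning every cell to 1000 UMIs, the share of T-like cells with an Il1b UMI was 0.924% in KO eHCC and 3.95% in WT eHCC (unthinned 6.58% and 21.3%, median depths 7025.5 and 6370.0 UMIs), against 50.3% and 41.1% of the monocyte- or macrophage-like cells (unthinned 76.5% and 76.0%).

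Il1a, whose product is active without cleavage and can be released by dying cells, was an endothelial RNA in premalignant liver. Endothelial-like cells had 99.3 (95% interval 94.5 to 104) CPM in the KO premalignant, 132 (95% interval 129 to 136) in the WT premalignant, 11.5 (95% interval 5.96 to 20.1) in the KO eHCC and 36.7 (95% interval 30.2 to 44.1) in the WT eHCC library. The premalignant libraries were highest, and WT exceeded KO at both stages, by a log2 ratio of KO to WT of -0.41 (-0.49 to -0.33) in premalignant liver and -1.67 (-2.66 to -0.81) in eHCC. From premalignant liver to eHCC the endothelial log2 ratio was -1.85 (-2.13 to -1.58) in WT and -3.11 (-4.06 to -2.3) in KO. The endothelial-like cells were not the same kind at the 2 stages: in eHCC 55 of 70 KO and 153 of 190 WT cells lay in a vascular cluster led by Igfbp3 and Esm1, and Stab2, a sinusoidal marker, was at 1197, 1116, 68.2 and 206 CPM in the 4 libraries. In that vascular cluster Il1a was at 0 CPM in KO and 2.37 in WT eHCC. Among the 34 sinusoidal-like cells of WT eHCC, Il1a was at 199.8 CPM, against 139 in the 4906 sinusoidal-like cells of WT premalignant liver.

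Within premalignant endothelium Il1a followed the clusters. It was highest in a cluster led by Ntn4, Efnb1 and Dll4 (139 CPM in KO, 164 in WT), lower in a cluster led by Wnt2 and Kit (91 and 117) and lowest in a cluster led by Rspo3 and Vwf (20.1 and 32.8). The same order held in both genotypes. The log2 ratio of the Ntn4 cluster to the Wnt2 cluster was 0.61 (0.46 to 0.76) in KO and 0.49 (0.41 to 0.57) in WT, and that of the Rspo3 cluster to the Wnt2 cluster was -2.18 in KO and -1.83 in WT.

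In eHCC the Il1a UMIs lay in myeloid cells instead. Monocyte- or macrophage-like cells held 70.2% of the Il1a UMIs of WT eHCC, at 16.4 (95% interval 15.3 to 17.6) CPM, and 33.8% of those of KO eHCC, at 7.01 (95% interval 5.51 to 8.8). In premalignant liver the same class had 0 UMIs in the KO library and 5 in the WT library. Within WT eHCC the Gpnmb and Spp1 cluster was highest of the larger macrophage-like clusters at 43 CPM and held 35.5% of the library's Il1a UMIs, followed by the larger Fcrls cluster at 16.3. Neutrophil-like cells had 32.9 CPM in KO eHCC and 25.4 in WT eHCC, a log2 ratio of 0.37 (-0.60 to 1.23). A small unnamed myeloid cluster led by Ccl8 and Mmp12 had 69.3 and 42.5 CPM and held 49.8% of the Il1a UMIs of KO eHCC, 18.3% of them in a single cell.

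Il18, the ligand that drives interferon gamma in T and NK cells, was a low RNA with its highest premalignant levels in the resident macrophages. Kupffer-like cells had 108 (95% interval 95.8 to 121) CPM in WT premalignant liver and 74.9 in the 29 KO premalignant cells. Monocyte- or macrophage-like cells had 31.9 (95% interval 22.9 to 43.3) CPM in the KO premalignant, 48.7 (95% interval 38.2 to 61.3) in the WT premalignant, 53.1 (95% interval 48.8 to 57.7) in the KO eHCC and 24.2 (95% interval 22.9 to 25.6) in the WT eHCC library. KO was below WT in premalignant liver, with a log2 ratio of -0.61 (-1.2 to -0.04), and above it in eHCC, with 1.13 (0.99 to 1.28). The eHCC difference was seen in classical monocyte-like cells (54 against 27.3 CPM, log2 ratio 0.99) and in macrophage-like cells (67.5 against 25.6, 1.4). It was not seen within the Ly6i and Cxcl9 cluster, where the ratio was -0.24 (-0.70 to 0.25). The macrophage-like value rested on 21 KO and 885 WT UMIs. Those cells lay mostly in different clusters, with median depths of 1750 UMIs in KO and 16009 in WT eHCC.

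Non-leukocytes also carried Il18 in premalignant liver. Cholangiocyte-like cells had 50.1 CPM in KO and 52.2 in WT, and hepatocyte-like barcodes had 24.8 and 34. Stellate- or fibroblast-like cells had 48.8 CPM in 56 KO cells and 46.5 in 25 WT cells. Endothelial-like cells were at 0.436 and 1.31 CPM, far below all of these. Conventional dendritic-like cells had 25.4 CPM in the KO premalignant, 50.7 in the WT premalignant, 11.6 in the KO eHCC and 15.2 in the WT eHCC library. The level was lower in each eHCC library than in the premalignant library of its genotype. The make-up of this class differed between the libraries, as given for Il1b.

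Il1rn, the receptor antagonist, was high in KO eHCC monocytes. Its level in monocyte- or macrophage-like cells was 111 (95% interval 93.2 to 130.4) CPM in the KO premalignant, 36.7 (95% interval 27.7 to 47.8) in the WT premalignant, 117 (95% interval 110.4 to 124) in the KO eHCC and 27 (95% interval 25.6 to 28.4) in the WT eHCC library. The KO eHCC library stood above the WT eHCC library, with a log2 ratio of 2.11 (2.0 to 2.23), and in classical monocyte-like cells alone the values were 123 and 25.1 CPM, a ratio of 2.29 (2.11 to 2.49). The Ly6i and Cxcl9 cluster held 67.7% of all Il1rn UMIs of KO eHCC at 225 CPM. In the 56 WT eHCC cells of that cluster the level was 138, with 40% of the UMIs in a single cell, and the ratio within the cluster was 0.70 (0.40 to 1.02). The KO eHCC cells of the Tppp3 and Plac8 cluster were at 25.6 CPM, so the high KO value rested on the Ly6i and Cxcl9 cluster.

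In premalignant monocyte- or macrophage-like cells the KO to WT log2 ratio of Il1rn was 1.59 (1.13 to 2.07), but 69.7% of the KO UMIs came from a single cell. Without the top cell of each library the ratio was 0.07. Neutrophil-like cells had 281 CPM in the KO premalignant, 188 in the WT premalignant, 134 in the KO eHCC and 163 in the WT eHCC library, with a KO to WT ratio in eHCC of -0.28 (-0.72 to 0.13) that turned to 0.54 after scaling to the median gene. Kupffer-like cells of WT premalignant liver had 66.5 (95% interval 57.2 to 76.8) CPM and held 32.9% of that library's Il1rn UMIs. In WT eHCC the Gpnmb and Spp1 cluster had 64.2 CPM and 29.6% of the library's Il1rn UMIs.

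Il18bp, which encodes the secreted protein that binds IL-18, marked Kupffer-like cells. Their level was 974 CPM in 29 KO premalignant cells and 756 (95% interval 724 to 789) in 302 WT premalignant cells. Both were far above every other named class of their libraries. The eHCC libraries held 18 and 13 Kupffer-like cells, too few to give. A cluster that carried both Kupffer and sinusoidal endothelial markers had 153 and 319 CPM in the premalignant libraries. The Ccl8 and Mmp12 cluster had 338 and 229.9 CPM in KO and WT eHCC and held 41% and 37.7% of their Il18bp UMIs.

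In monocyte- or macrophage-like cells Il18bp was at 4.68 CPM in the KO premalignant, 8.68 in the WT premalignant, 29.5 in the KO eHCC and 13.8 in the WT eHCC library, highest in KO eHCC. The KO to WT log2 ratio in eHCC was 1.1 (0.90 to 1.29), and 2.74 (2.29 to 3.23) in classical monocyte-like cells, where the levels were 27.8 and 4.15 CPM. Endothelial-like cells had 17.1 CPM in the KO premalignant, 21.3 in the WT premalignant, 29.8 in the KO eHCC and 11 in the WT eHCC library. The endothelial ratio of KO to WT eHCC was 1.43 (0.68 to 2.18), but a single cell gave 54.8% of the KO UMIs and the ratio without the top cells was 0.49. Il18bp overlaps Numa1 on the other strand, a gene with 4378 to 7799 UMIs per library, and the sources used here do not state whether the counting kept the strands apart.

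Il1r1, the signalling receptor, was found in endothelium, mesenchyme and an Il17a-expressing T cluster. Endothelial-like cells had 65.2 (95% interval 61.4 to 69.3) CPM in the KO premalignant, 56.5 (95% interval 54.3 to 58.8) in the WT premalignant, 44.2 (95% interval 32.4 to 59) in the KO eHCC and 38.6 (95% interval 32 to 46.2) in the WT eHCC library. Genotypes were close at both stages, with log2 ratios of 0.21 (0.10 to 0.31) and 0.19 (-0.33 to 0.70), and eHCC was below premalignant liver by -0.55 in WT and -0.56 in KO. Within premalignant endothelium the order of clusters was the reverse of that for Il1a: the Rspo3 and Vwf cluster was highest at 173 and 143 CPM in KO and WT, the Wnt2 and Kit cluster next at 62.9 and 57.1, and the Ntn4 cluster lowest at 49.996 and 46. Ligand and receptor thus stood in opposite order over the same 3 clusters in both genotypes.

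Stellate- or fibroblast-like cells had 26.1 CPM in 56 KO premalignant cells, 175 in 25 WT premalignant cells and 144 in 41 WT eHCC cells. T-like cells as a class were low, at 3.31 CPM in the KO premalignant, 2.47 in the WT premalignant, 1.05 in the KO eHCC and 8.17 in the WT eHCC library, with the WT eHCC library highest and a KO to WT log2 ratio in eHCC of -2.95 (-3.45 to -2.49). In eHCC nearly all of this came from a cluster led by Il17a and Trdc, the constant gene of the gamma-delta receptor, with 38 of 45 UMIs in KO and 218 of 240 in WT, while in premalignant liver it gave 23 of 37 UMIs in KO and T-like cells outside it gave at least 16 of 26 in WT. It had 153 CPM in 26 KO premalignant cells, 68.5 in 73 KO eHCC cells and 136 in 223 WT eHCC cells, and held 26.8% and 39.4% of the Il1r1 UMIs of the eHCC libraries. Within that cluster the KO to WT ratio was -0.99 (-1.52 to -0.49), much smaller than over all T-like cells, of which the cluster made up a larger part in WT eHCC.

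Il1r2, the decoy receptor, had its highest levels in neutrophil-like cells. Neutrophil-like cells had 492 CPM in the KO premalignant, 522 in the WT premalignant, 824 in the KO eHCC and 907 in the WT eHCC library and held 49.6%, 52.4%, 28.2% and 79.9% of the Il1r2 UMIs. The eHCC libraries were the higher pair in CPM. In KO eHCC the monocyte or macrophage class held more Il1r2 UMIs than the neutrophil-like cells, 442 against 326 of 1155. The KO to WT log2 ratio in eHCC neutrophil-like cells was -0.14 (-0.31 to 0.03), which became 0.69 after scaling to the median gene, so its direction rests on the scaling. The highest clusters were the Retnlg cluster of KO eHCC at 1305 CPM and the Siglecf cluster of WT eHCC at 1202.

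Outside neutrophils, Il1r2 was higher in KO than in WT eHCC in the monocyte or macrophage class and in conventional dendritic-like cells. Its level in monocyte- or macrophage-like cells was 3.12 CPM in the KO premalignant, 2.67 in the WT premalignant, 41.9 in the KO eHCC and 7.56 in the WT eHCC library. The eHCC log2 ratio of KO to WT was 2.47 (2.27 to 2.67), with 1.41 (1.16 to 1.66) in classical monocyte-like cells and 3.02 (1.78 to 4.66) in the Ly6i and Cxcl9 cluster (59.1 against 7.27 CPM). Macrophage-like cells had 1 UMI in KO and 125 in WT, a ratio of -0.17 (-5.49 to 2.33), and plasmacytoid dendritic-like cells had 5 and 3 UMIs. The 10 neutrophil markers summed to 329 CPM in the KO and 426 in the WT eHCC cells of this class, the opposite order to Il1r2. The conventional dendritic-like ratio was 1.45 (0.94 to 1.96), but 0.97 in the lowest alternative setting. Of that class 113 of 172 KO and 31 of 126 WT eHCC cells were mature dendritic-like. The class median depths were 3035 and 15641 UMIs. Type 2 conventional dendritic-like cells had 138 CPM in 39 KO eHCC cells and 47.9 in 64 WT eHCC cells. Regulatory T-like cells had 69.5 CPM in 97 KO and 17.7 in 218 WT eHCC cells, a ratio of 1.97 (1.21 to 2.78).

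Il1rl1, the receptor of IL-33, was found in mast cell-like, basophil-like and T-like cells and, in KO eHCC, in erythroid-like cells. The 238 mast cell-like cells of KO eHCC had 844 (95% interval 777 to 915) CPM and held 74.4% of that library's Il1rl1 UMIs. Basophil-like cells had 199 CPM in 45 KO premalignant, 57.8 in 21 WT premalignant and 111 in 63 KO eHCC cells. Erythroid-like cells had 70 UMIs in 1211 KO eHCC cells, at 7.02 (95% interval 5.47 to 8.87) CPM, and 0 UMIs in 149 WT eHCC and 76 WT premalignant cells. The KO to WT log2 ratio in eHCC was at least 1.06 with 3 UMIs as the floor, but that bound was -0.23 after scaling to the median gene, so that the direction rests on the scaling. T-like cells had 4.21 CPM in the KO premalignant, 1.9 in the WT premalignant, 1.71 in the KO eHCC and 6.64 in the WT eHCC library. KO was above WT in premalignant liver, with a log2 ratio of 1.15 (0.36 to 1.98), and below it in eHCC, with -1.96 (-2.36 to -1.56).

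In T-like cells the UMIs were concentrated in a few clusters. A cluster led by Cd40lg that also had Gata3 among its leading genes held 456 WT eHCC cells at 51.9 CPM, which was 60.5% of the Il1rl1 UMIs of that library, and 7 KO eHCC cells. Regulatory T-like cells, a known ST2 population in tissues, had 22.2 CPM in KO and 34.6 in WT eHCC, a log2 ratio of -0.64 (-1.57 to 0.23). In premalignant liver a cluster led by Izumo1r and Slamf6 had 23.4 CPM in 280 KO cells and 10.4 in 283 WT cells. The T-like class ratio in eHCC therefore compared clusters of unequal size. The monocyte or macrophage class had 0 and 0 Il1rl1 UMIs in the premalignant libraries and 0.379 and 0.305 CPM in the eHCC libraries.

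**Figure D2:**
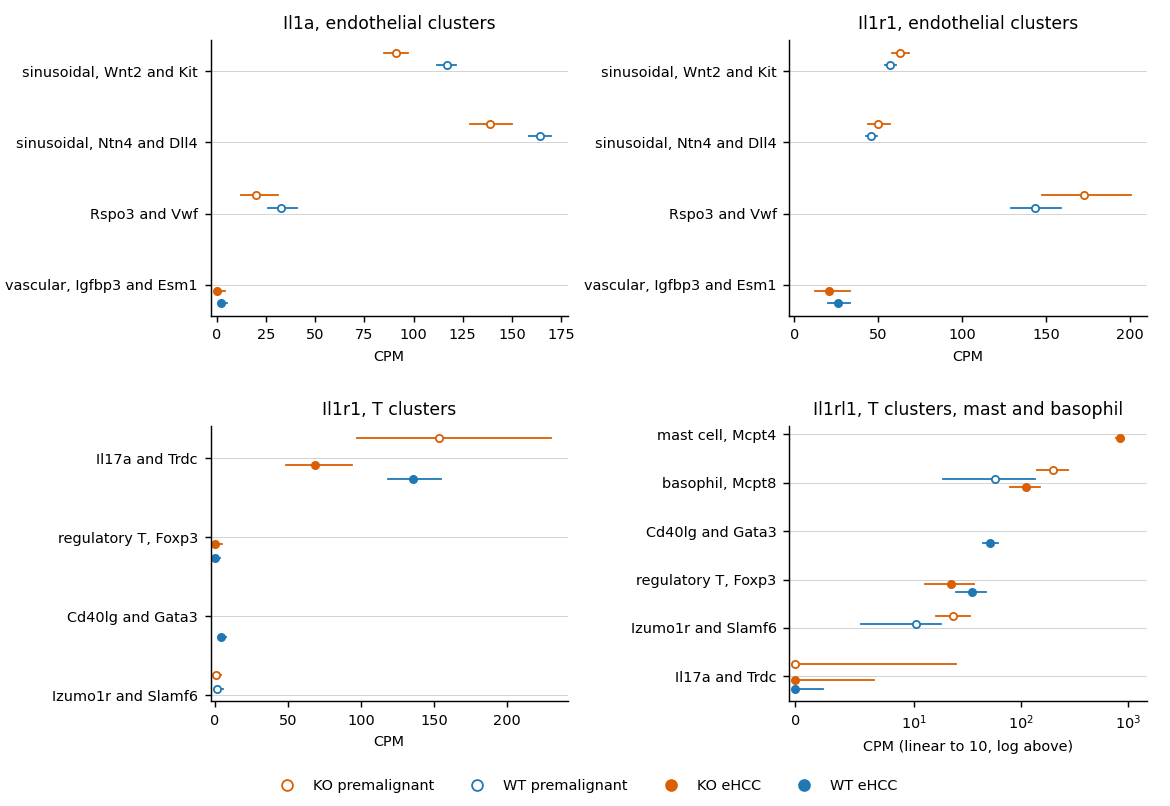
CPM of Il1a and Il1r1 in endothelial clusters, of Il1r1 in T-like clusters, and of Il1rl1 in T-like clusters, mast cell-like and basophil-like cells. Points are coloured by genotype, open for premalignant liver and filled for eHCC, with 95% Poisson intervals. In premalignant liver the Rspo3 and Vwf endothelial cluster is lowest for Il1a and highest for Il1r1, and Il1rl1 is highest in mast cell-like cells of KO eHCC.

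Nlrp3, the sensor that builds the inflammasome, followed the Il1b-rich cells. Neutrophil-like cells had 871 CPM in the KO premalignant, 529 in the WT premalignant, 349 in the KO eHCC and 301 in the WT eHCC library, the KO premalignant library being highest. In the Retnlg cluster the values were 871, 563, 754 and 537 CPM, with KO above WT at both stages and a log2 ratio of 0.49 (0.18 to 0.79) in eHCC. Basophil-like cells had 641 CPM in 45 KO premalignant, 208 in 21 WT premalignant and 1589 in 63 KO eHCC cells, and held 26.4% of the Nlrp3 UMIs of KO eHCC.

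The monocyte or macrophage class had 95.8 (95% interval 79.7 to 114) CPM in the KO premalignant, 44.1 (95% interval 34.1 to 56.1) in the WT premalignant, 113 (95% interval 106 to 119) in the KO eHCC and 84.3 (95% interval 81.8 to 86.8) in the WT eHCC library. The WT premalignant library was the lowest. The KO to WT log2 ratio was 1.12 (0.68 to 1.58) in premalignant liver and 0.42 (0.33 to 0.51) in eHCC. Classical monocyte-like cells gave 1.11 (0.65 to 1.59) and 0.18 (0.06 to 0.30). Macrophage-like cells of eHCC gave -1.67 (-2.99 to -0.62), with 22.5 CPM in KO and 71.5 in WT. These macrophage-like cells lay mostly in different clusters in KO and WT and were far less deep in KO. In premalignant liver the neutrophil markers in this class summed to 456 CPM in KO and 148 in WT, with 1 and 3 of the 10 at 0, and their part in the Nlrp3 difference was not tested. After thinning to 1000 UMIs, 9.55% of the KO and 3.68% of the WT premalignant cells of the class had an Nlrp3 UMI (unthinned 41.9% and 23.1%), compared with 0.241% and 0.532% in T-like cells of the eHCC libraries.

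**Figure D3:**
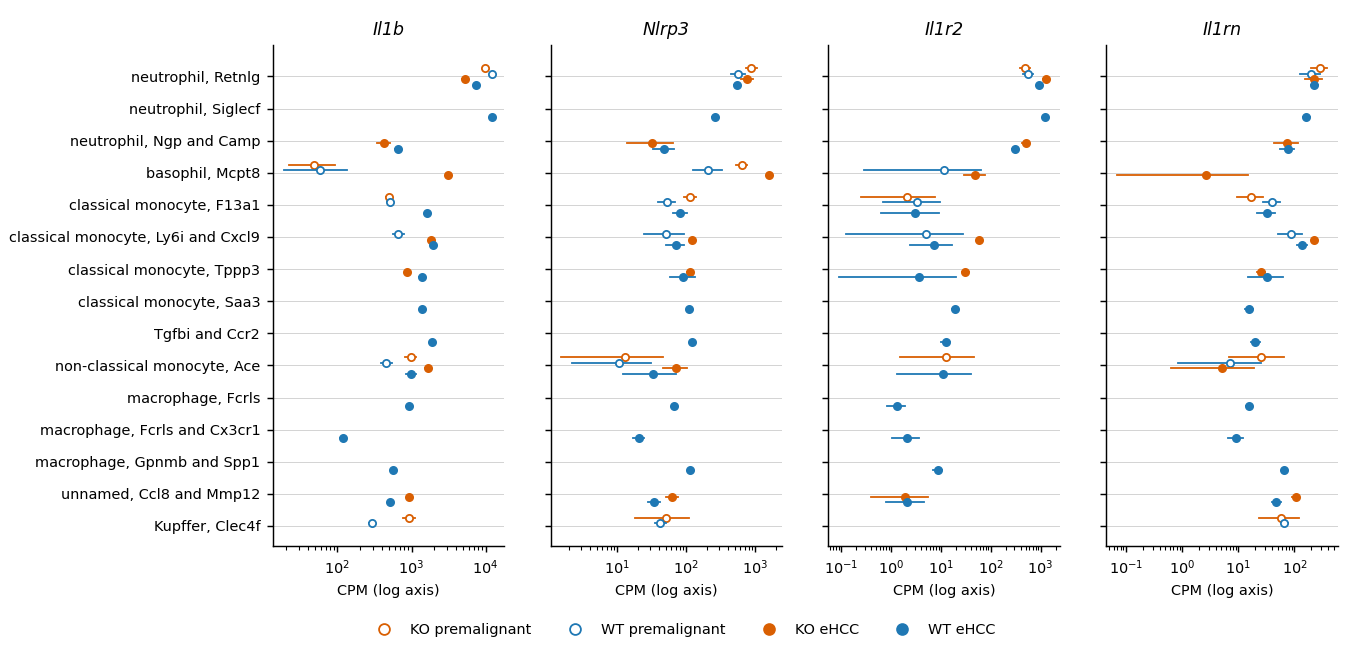
CPM (log axis) of Il1b, Nlrp3, Il1r2 and Il1rn in each myeloid cluster (rows), 1 coloured point per library with at least 20 cells and 95% Poisson intervals. The neutrophil-like clusters led by Retnlg and by Siglecf are at the top for Il1b and Il1r2, and the Ly6i and Cxcl9 monocyte-like cluster of KO eHCC is high for Il1rn.

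Casp1, the protease that cuts the IL-1 beta and IL-18 precursors, was the most evenly spread of the 10 genes. T-like cells had 38 CPM in the KO premalignant, 44.8 in the WT premalignant, 61.7 in the KO eHCC and 55.5 in the WT eHCC library, and NK- or ILC1-like cells had 58.8, 67.1, 58 and 67.4 in the same order. B-like cells lay between 30.8 and 42 CPM, and endothelial-like cells between 36 and 53.7. Hepatocyte-like barcodes (2.16 and 5.84 CPM in premalignant KO and WT) were low. Neutrophil-like cells, high for Il1b and Nlrp3, had 21.1 CPM in the KO premalignant, 34.8 in the WT premalignant, 45.5 in the KO eHCC and 28.8 in the WT eHCC library, below T-like cells in every library.

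In monocyte- or macrophage-like cells Casp1 was at 87.3 (95% interval 71.9 to 105) CPM in the KO premalignant, 86.1 (95% interval 71.9 to 102) in the WT premalignant, 86 (95% interval 80.5 to 91.8) in the KO eHCC and 44.9 (95% interval 43.1 to 46.7) in the WT eHCC library. The first 3 libraries were close and WT eHCC was low. The KO to WT log2 ratio was 0.02 (-0.36 to 0.40) in premalignant liver and 0.94 (0.83 to 1.05) in eHCC, and from premalignant liver to eHCC it was -0.94 (-1.2 to -0.67) in WT and -0.02 (-0.30 to 0.28) in KO. In the Ly6i and Cxcl9 cluster KO was not above WT in eHCC, with 79 and 109 CPM and a ratio of -0.46 (-0.82 to -0.09).

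Over all cell types, KO and WT premalignant liver were compared first. In 9 cell types with at least 50 cells in both libraries, 45 gene and cell type pairs had at least 20 UMIs, of which 4 were at least 2-fold higher and 9 at least 2-fold lower in KO. Over all genes in the same cell types 3.07% were at least 2-fold higher and 3.55% lower (6.63% in all). The interval lay wholly within 2-fold for 17 pairs. The higher pairs were Nlrp3 and Il1rn in monocyte- or macrophage-like cells, Il1rl1 in T-like cells and Il1rn in cholangiocyte-like cells (24.3 against 2.37 CPM, 32 against 2 UMIs). The lower pairs were low levels, such as Il1a in T-like, B-like and hepatocyte-like cells and Il1b in endothelial-like and plasmacytoid dendritic-like cells, none above 56.3 CPM in WT.

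Of these 13 pairs, 5 stayed past 2-fold in every alternative setting that gave a value. Without the top cells Il1rn in monocyte- or macrophage-like cells and Il1b in plasmacytoid dendritic-like cells (-1.9, then -0.70) did not.

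KO and WT eHCC differed in more pairs. Of 49 pairs in 9 cell types, 7 were at least 2-fold higher and 13 at least 2-fold lower in KO, against 8.57% and 11.5% of all genes (20.1% in all). With scaling to the median gene of each cell type the split was 11 higher and 13 lower. In monocyte- or macrophage-like cells the antagonist, decoy and Il18 genes were higher in KO: Il1r2 (2.47), Il1rn (2.11), Il18 (1.13) and Il18bp (1.1), while Il1a was lower (-1.23) and Il1b (0.39), Nlrp3 (0.42) and Casp1 (0.94) lay within 2-fold. Of all genes in this class 8.11% were past 2-fold upwards and 14.9% downwards. Il18 and Il1a did not stay past 2-fold in every alternative setting, whereas the other 3 did. Il1a was above WT rather than below it in classical monocyte-like cells, with a ratio of 0.72 (0.18 to 1.27).

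Of the lower pairs, 6 were Il1b outside the main Il1b cells: T-like (-1.95), NK- or ILC1-like (-2.29), B-like (-2.41), plasmacytoid dendritic-like (-4.79), endothelial-like (-1.45) and erythroid-like cells (-2.12), and the macrophage markers in T-like and B-like cells were likewise lower in KO (for B-like cells 516 against 2386 CPM). The classical monocyte markers went the other way, with 1186 CPM in KO against 888 in WT for T-like cells and 1014 against 799.5 for B-like cells. Of the 20 pairs, 13 stayed past 2-fold in every alternative that gave a value. The median gene lay at -0.10 in monocyte- or macrophage-like cells and at 1.21 in erythroid-like cells.

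**Figure D4:**
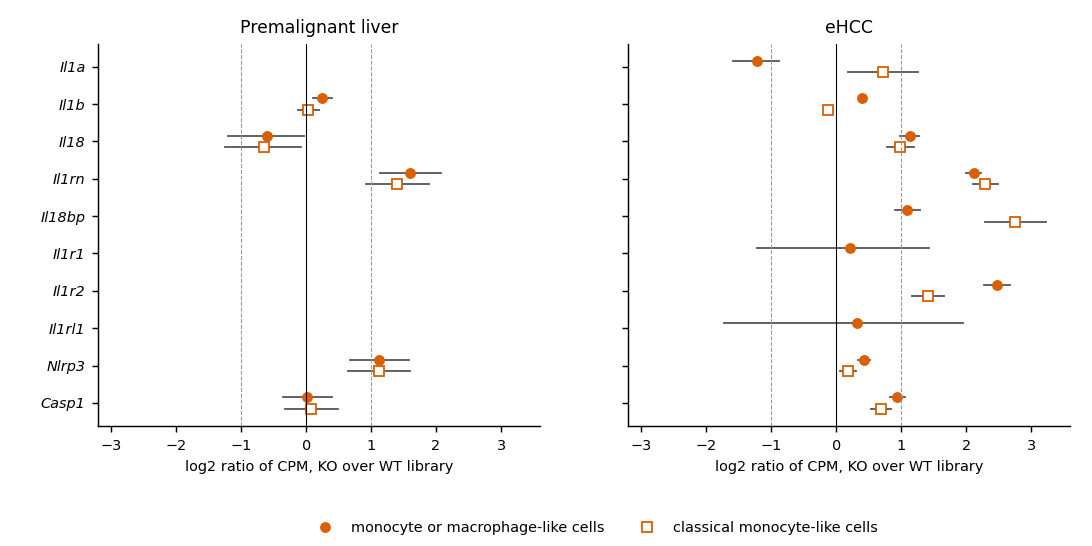
Log2 ratio of KO to WT for the 10 genes in monocyte- or macrophage-like cells and in classical monocyte-like cells, for premalignant liver and eHCC (points, with exact 95% intervals, dashed lines at 2-fold). In eHCC Il1r2 and Il1rn lie above the upper line in both classes.

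From WT premalignant liver to WT eHCC, 20 of 52 pairs were at least 2-fold higher and 10 at least 2-fold lower, against 6.26% and 11% of all genes (17.2% in all). This comparison uses the same WT libraries as the genotype comparisons. Il1b was at least 2-fold higher in 8 of 9 cell types, the exception being monocyte- or macrophage-like cells at 0.92. Of these 8, the values in conventional dendritic-like, erythroid-like and plasmacytoid dendritic-like cells did not stay past 2-fold in every alternative: thinning gave 0.69 for the first, and marker placement turned the others to -0.49 and -1.21. Macrophage markers were higher in eHCC as well, from 239.7 to 1315 CPM in T-like and from 630.3 to 2386 in B-like cells, and their part in the lymphocyte Il1b values was not tested. Of the 30 pairs, 19 stayed past 2-fold in every alternative. In monocyte- or macrophage-like cells Il1a (2.3) and Il1r2 (1.5) were higher, and Il18 (-1.01) lower. The Il18 value stayed past 2-fold in 3 of 9 alternatives, and the Il1r2 value did not stay past it in all. In the conventional dendritic-like cells Il1r2 went from 1 to 52 UMIs, a log2 ratio of 5.08 (2.54 to 10.41), and Il1rn from 2 to 21, 2.77 (0.74 to 5.91). Il1a was lower in endothelial-like cells (-1.85).

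From KO premalignant liver to KO eHCC, 8 of 37 pairs in 7 cell types were at least 2-fold higher and 6 at least 2-fold lower, against 4.78% and 17.7% of all genes (22.5% in all). Scaling to the median gene changed the split to 15 higher and 3 lower. In KO the monocyte or macrophage class was higher for Il1r2 (3.75), Il18bp (2.66) and Il1b (1.07), and at least 1.58 higher on the log2 scale for Il1a, which had 74 UMIs against 0 (3 UMIs taken as the floor). Of the 14 pairs, 6 stayed past 2-fold in every alternative, Il1b in this class (0.63 after thinning) and in conventional dendritic-like cells (0.39) not among them. Without the top cells the bound for Il1a was 0.98. Conventional dendritic-like cells were higher for Il1b (1.86) and Il1r2 (2.68). Il1a in endothelial-like cells was lower (-3.11), as in WT.

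The other genes of the pathway were read from a list of 39, of which 35 were in the files: receptors and their adaptors (such as Myd88 and the Irak genes), other sensors (such as Aim2, Nlrc4 and Mefv) and the executioners of pyroptosis (such as Gsdmd). They are given in monocyte- or macrophage-like cells, the class with most Il1b UMIs among those with at least 50 cells in both libraries. Between KO and WT premalignant liver, 0 of 24 genes with enough UMIs were 2-fold higher and 0 lower, where 2.04% and 2.89% of all genes were, and the list's median log2 ratio was 0.14 (all genes 0.01). The highest were Tollip (0.81), Naip5 (0.55) and Irak2 (0.49), and the lowest Casp8 (-0.34), Gsdmd (-0.31) and Txnip (-0.19).

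Between KO and WT eHCC 4 of 31 were higher and 3 lower, where 8.11% and 14.9% of all genes were, with a median of 0.04 (all genes -0.10). Mefv, which encodes the sensor pyrin, was at 63.3 against 8.52 CPM in KO and WT, a log2 ratio of 2.89. It was followed by Casp4 (89.9 against 24 CPM, 1.90), the protease that senses lipopolysaccharide, and Ninj1 (281 against 97.5 CPM, 1.53), which ruptures the membrane in lytic death. The lowest was Il1rl2 (0.663 against 13.8 CPM, -4.38), the receptor of IL-36, then Nlrp1b (2.46 against 6.42 CPM, -1.38) and P2rx7 (16.4 against 33.4 CPM, -1.03), the ATP-gated channel upstream of NLRP3. Sensors thus stood at both ends of the list.

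Against premalignant liver, 3 of 31 list genes were higher and 6 lower in WT eHCC, where 8.19% and 12.6% of all genes were, and 0 of 29 higher and 5 lower in KO eHCC, where 6.86% and 10.8% were. The list medians were -0.28 and -0.46 (all genes -0.17 and -0.19). In WT, Il18rap, a chain of the IL-18 receptor, was high (2.73, 0.23 to 8.04), but with 232 UMIs against 1. Il1rl2 was also high (a log2 ratio of at least 2.78). Il18r1 had 68 UMIs against 0, and no fold is given because 3 UMIs in the smaller premalignant sum would be a higher level. Mefv (-2.13), Casp4 (-1.59) and Sigirr (-1.34) were lowest, Sigirr with 83 UMIs against 6 and an interval of -2.52 to 0.15. In KO, Ninj1 (0.73), Mefv (0.46) and Panx1 (0.25) were highest and Txnip (-1.38), Card9 (-1.24) and Naip5 (-1.05) lowest.

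A list of 20 genes known to respond to NF-kB, the factor downstream of IL1R1, was read in the same class. Between genotypes 0 of 17 were higher and 2 lower in premalignant liver (median -0.01, all genes 0.01), and 3 of 20 higher and 5 lower in eHCC (median 0.08, all genes -0.10). Of all genes in the class 2.04% were higher and 2.89% lower in premalignant liver, and 8.11% and 14.9% in eHCC. In premalignant liver Tnfaip3 (0.87), Cxcl2 (0.87) and Zfp36 (0.46) were highest and Tnf (-1.11), Ccl4 (-0.34) and Relb (-0.33) lowest. In eHCC the highest were Bcl3 (79.7 against 17.8 CPM, 2.17), Nfkb2 (1.35) and Il6 (1.07), and the lowest the chemokine genes Ccl3 (78.8 against 678 CPM, -3.10) and Ccl4 (325 against 1069.7 CPM, -1.72), with Nfkbiz (-1.55). The list therefore held genes on both sides and no common direction.

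From premalignant liver to eHCC, 4 of 20 NF-kB list genes were higher and 7 lower in WT (median -0.25, all genes -0.17), and 4 higher and 4 lower in KO (median -0.07, all genes -0.19). The shares over all genes were 8.19% higher and 12.6% lower in WT, and 6.86% and 10.8% in KO. In WT, Saa3 (5.82), Lcn2 (3.55) and Ccl4 (2.49) were highest and Il6 (-2.24), Nfkb2 (-1.78) and Bcl3 (-1.73) lowest. In KO, Lcn2 (4.09), Saa3 (3.92) and Cxcl1 (2.58) were highest and Ccl3 (-2.79), Nfkbiz (-2.31) and Zfp36 (-1.77) lowest. Saa3, an acute phase protein gene, and Lcn2, the gene of an iron-binding neutrophil protein, were thus the 2 highest in both. The 2 comparisons share no library. The premalignant sums held few UMIs of these genes, 1 of Saa3 and 5 of Lcn2 in WT, and 5 and 3 in KO. Cxcl1 in KO rested on 49 UMIs against 1, with an interval of 0.03 to 7.91.

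Across 43 sums of at least 50 cells (a cell type in a library), each of the 10 genes was compared with 12406 genes by Pearson's r of log2(CPM + 5). The sums share libraries and depth, so r is a description. Il1b was most like Ccl6 (0.92), Nlrp3 (0.91) and Igsf6 (0.91), and Nlrp3 like Ccl6 (0.95), Emilin2 (0.92) and Il1b (0.91), so that these 2 stood among each other's 3 nearest genes. Il1r2 was most like Asprv1 (0.89), Cxcr2 (0.88) and Ccr1 (0.87), and Il1rn like Gm5150 (0.89), Cd14 (0.88) and Slc11a1 (0.86). Il1rl1 was most like Cpa3 (0.96), Fcer1a (0.95) and Cd200r3 (0.91), genes of mast cells and basophils. Il18bp was most like Siglec1 (0.82), Gbp2b (0.82) and Tmem26 (0.81), Il1a like C5ar2 (0.91), Fam219a (0.83) and Tcn2 (0.82) and Il18 like Fzd7 (0.88), Tmem141 (0.87) and Rab32 (0.83). Il1r1 was most like Ptprg (0.94), Lpin3 (0.94) and Tead4 (0.94), and Casp1 like Sp110 (0.85), St6galnac4 (0.85) and Prex1 (0.85).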

How the data were processed

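Cells of mouse liver were profiled by 10x Genomics 5′ single-cell RNA sequencing, 1 library per group. The deposited files hold UMI counts of every gene in each barcode, not normalized, and their headers name Cell Ranger 3.0.1. bcl2fastq 2.20.0 and the builds GRCh38 and mm10 are named in the submitters' processing notes without roles. The 4 files hold 9672 to 14167 barcodes and 56458438 to 118594527 UMIs.

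Kept barcodes had 500 UMIs or more, 150 genes or more and no more than 25% mitochondrial UMIs. Doublets were called with scrublet in scanpy 1.11.5; where its own threshold marked under 0.5%, as in both eHCC libraries, the top 7.43% and 7.99% of scores were removed. Cells were clustered together (Leiden, leidenalg 0.10.2, 2000 variable genes, 40 components, 15 neighbours), and myeloid and lymphoid cells again, giving 75 clusters. A cluster took the name of 1 of 24 marker lists if at least 3 markers were detected and its scaled score reached 0.65. No rival list of another lineage could exceed 0.69 times that score. Clusters whose leading genes pointed to another lineage, or with low UMIs and no marker among the leading genes, also stayed unnamed. These rules were set after cell numbers were seen, and 213 to 1078 cells per library stayed unnamed.

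UMIs were summed per cell type and library and given as CPM with exact Poisson intervals. Log2 ratios have exact conditional binomial intervals, and shares of cells are exact binomial proportions. With 0 UMIs in 1 library, a floor of 3 UMIs gives a bound. A value counts as past 2-fold with at least 20 UMIs in both libraries together and at least 50 cells in each. All 10 genes are named, with the 3 highest and 3 lowest genes of a pathway list (39) and an NF-kB list (20) among those with at least 50 UMIs, and the 3 genes most alike in pattern. The genes and lists were chosen with earlier results of these data known. Simulated counts were used to test the ratio script. The comparisons were repeated under 10 other settings and 1 more chosen after seeing the data. Gene IDs matched the GRCm38 annotation for 30934 of 31053 genes. Overlapping genes on either strand, such as Il18bp and Numa1, may share reads.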

Additional observations from a re-analysis of the deposited data

Results flagged for a closer look

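For 5 genes in a cell type the KO to WT log2 ratio had opposite signs at the 2 stages, with intervals that excluded 0 at both. The difference between stages was not tested, since each stage has 1 library per genotype.

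Il1rl1 in T-like cells was 1.15 in premalignant liver and -1.96 in eHCC, and the T-like clusters that hold its UMIs differed between the libraries. Il18 in monocyte- or macrophage-like cells was -0.61 in premalignant liver and 1.13 in eHCC, where the KO and WT cells lay in different clusters. Il18bp in endothelial-like cells was -0.31 in premalignant liver and 1.43 in eHCC, the latter falling to 0.49 without the top cells.

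Casp1 in T-like cells was -0.24 in premalignant liver and 0.15 in eHCC, and Il1b in conventional dendritic-like cells was -0.28 and 0.20. Both pairs lie well inside 2-fold.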

How the results depend on the processing

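No paired analysis was possible because 1 library was made per group. The count of gene and cell type pairs past 2-fold ranged over the alternatives from 3 to 17 for KO against WT in premalignant liver (13 as reported), from 11 to 25 in eHCC (20), from 7 to 34 for eHCC against premalignant liver in WT (30) and from 6 to 24 in KO (14). Thinning every cell to 1000 UMIs gave 3, 13, 7 and 6 in that order, with fewer UMIs per pair. A minimum of 50 UMIs gave 8 in premalignant liver. Leaving out pairs under 5% of a gene's highest cell type, an alternative chosen after seeing the data, gave 8 in premalignant liver and 11 in eHCC. Placing each cell by its own marker UMIs gave 24 for KO eHCC against KO premalignant. Of 1622 alternative log2 ratios, 1444 stayed within the counting interval of the reported value and 171 moved outside it. Another 7, all past 2-fold as reported, changed sign. Sign changes of values inside 2-fold were not counted apart. Marker placement reversed Il1rn in T-like cells in KO (-0.11) and, in WT eHCC against premalignant, Il1a in B-like (0.0768), Il1b in erythroid-like (-0.49) and Il1b in plasmacytoid dendritic-like cells (-1.21). Clustering each library alone reversed Il1b in premalignant plasmacytoid dendritic-like cells (0.30), and weighting cells equally reversed Casp1 in premalignant hepatocyte-like barcodes (0.89). Scaling to the median gene put the lower bound for Il1rl1 in eHCC erythroid-like cells at -0.23, which gives no direction. The cause of these reversals was not tested. Depth limits low values: between 33 and 45 pairs per comparison had under 20 UMIs.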

Other observations

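Il1b per antagonist or decoy UMI, counted over all kept cells, is a ratio within a library. Il1b stood at 14.3 UMIs per Il1rn UMI in KO premalignant, 10.1 in WT premalignant, 12.4 in KO eHCC and 37.2 in WT eHCC liver, the last being highest. In KO premalignant liver 99 of the 255 Il1rn UMIs came from a single cell, so that its ratio rests in part on that cell. Per Il1r2 UMI, the decoy receptor gene, the values were 25.8, 39.5, 17.3 and 24.4 in the same order, with no such gap for WT eHCC. Il18 stood at 0.598, 0.20, 0.664 and 1.07 UMIs per Il18bp UMI, lowest in WT premalignant liver, where Kupffer-like cells alone had 0.142. These ratios count RNA of genes of different length and capture, so they compare libraries and not amounts of protein. The cell mix also differed: neutrophil-like cells were 0.66% of KO and 6.76% of WT eHCC cells. Monocyte- or macrophage-like cells were 10.0% and 34.3%. The part of cell mix in these ratios was not tested.

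Within monocyte- or macrophage-like cells of eHCC, cells with an Il1b UMI more often had a UMI of Nlrp3, Il1r2 and Il1rn than cells without. For Nlrp3 the shares were 59.6% against 29% in KO and 60.2% against 34.1% in WT. For Il1r2 they were 22.2% against 9.35% in KO and 9.64% against 3.17% in WT, and for Il1rn 35.0% against 23.8% and 18.8% against 14.1%. Cells with more UMIs hold more of every gene, and the part of depth in these shares was not tested.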
